A study of Mus musculus with 7 samples.

Results

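The genes described here encode amino acid and amine transporters of the SLC1, SLC3, SLC6, SLC7, SLC36, SLC38 and SLC43 families. They were chosen by symbol alone, as all probe sets that the platform annotation pairs with a single symbol of these families. This gave 102 of the 45141 probe sets on the array, for 58 of the 17097 genes with such a probe set. Of the 58 symbols, 2 (Slc36a1os and Slc6a19os) name transcripts from the opposite strand of a transporter gene and not transporters. Several family members, among them Slc1a4, Slc36a4, Slc38a8 and Slc38a11, had no probe set with a single symbol and were not analysed here.

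The arrays were 3 KO and 4 WT profiles of mouse colon adenoma cells on an Affymetrix array. The labels call the arrays KO or WT and the design text names Mex3a tom/flox or Tom/+ animals without pairing the names; KO was read here as tom/flox and WT as Tom/+. On that reading every animal had a Tomato reporter allele of Mex3a, and all carried Villin CreERT2 and APC fl/+ as well. Villin drives the Cre in the gut epithelium, and tamoxifen, given in 4 injections, activates it. All animals then drank 2% DSS, a polymer that injures the colon lining, for 5 days, and adenomas were taken 2 months later (the labels count from the induction in one place and from the end of DSS in another). Cells positive for Epcam and for Tomato, which reports activity of the Mex3a promoter, were sorted, and RNA of 2000 cells was amplified over 24 cycles. Scan batch 1 held 1 KO and 2 WT arrays, and scan batch 2 held 2 KO and 2 WT arrays. Whether the arrays come from different animals is not stated, so a p-value here reflects array-to-array spread, and part of that may be technical.

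Amino acids cross the plasma membrane through carriers that differ in what drives them. Sodium-coupled carriers such as Slc38a1 and Slc38a2 concentrate neutral amino acids in the cell. Exchangers made of a heavy chain (Slc3a2 or Slc3a1) and an SLC7 light chain trade one amino acid for another, and facilitative SLC43 carriers let branched-chain amino acids equilibrate. Others sit in the lysosome, where Slc38a9 takes part in signalling amino acid supply to the kinase complex mTORC1. In the intestine these carriers serve both absorption and the supply of dividing crypt cells, and when amino acids are short the transcription factor Atf4 raises the transcription of several of them.

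The sequence below is the best-known example of how that response is wired into a transporter promoter. It shows the letters searched in the other transporter promoters, where a promoter sequence was available. It is a stretch of 67 bases upstream of the RefSeq start of Slc7a11, from position -86 to -20, the light chain of the cystine and glutamate exchanger (GRCm38.p6, chr3:50443633-50443699, written along the minus strand on which the gene lies). Capitals mark the composite element bound by C/EBP and ATF proteins, TTGCATCA, and the same letters on the other strand, TGATGCAA.
Slc7a11: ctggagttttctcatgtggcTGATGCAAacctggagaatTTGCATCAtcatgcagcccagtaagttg
On either strand, these 8 letters occurred in 0.895% of the 32851 RefSeq promoter windows, each from 250 bases before to 50 after a start, and in at least 1 window of 1.03% of the 27025 genes. Of 41 transporter genes with a window 2 held them, Slc7a11 and Slc7a7, the light chain that exports cationic amino acids. The remaining transporter genes, among them Slc7a5, Slc1a5, Slc38a1 and Slc6a6, had no window and were not searched. A match is a description of the sequence, not a binding site. Slc7a11 lay below the level filter described next, at 4.39, 4.74 and 4.66 in KO arrays against 4.57, 4.67, 4.56 and 4.57 in WT arrays (log2 levels). The ranges overlapped. Slc7a7 stood at 8.18, 8.18 and 7.96 in KO arrays against 8.22, 7.82, 8.56 and 7.77 in WT arrays, with a log2 difference of 0.01 (SE 0.20).

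No transporter gene passed the test between KO and WT. Each gene was represented by the probe set with the highest mean, and the lowest 25% of all genes by mean log2 level (below 5.28) were left out, so that 39 transporter genes were tested and 19 were not. In the limma fit with scan batch as a covariate, 0 of the 39 had an adjusted p under 0.05, as did 0% of all 12823 genes tested, and the smallest adjusted p of a transporter gene was 0.409. At an unadjusted p under 0.05 there were 2 transporter genes higher in KO (7.14% of all genes were) and 2 lower (4.26% of all genes). Slc43a2 and Slc6a7 were the 2 higher, and Slc7a8 and Slc7a4 the 2 lower. These shares, 5.13% in each direction, lie near those of all genes.

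Most transporter genes nevertheless had a slightly lower mean in KO. The difference was negative for 30 of 39, against 56.1% of all genes tested, and the median log2 difference was -0.08 against -0.02 over all genes. An RNA quality measure from Gapdh, given below, is partly confounded with genotype. With it as a further covariate the median was -0.035 against -0.019 over all genes. With no level filter it was -0.045 against -0.023 over all genes. Over all 102 probe sets, also with no filter, it was -0.029, with 65 negative, and the values over all probe sets of the array were not computed. The median size of a difference was 0.11, close to the median SE of 0.10, so most single values cannot be told from 0. A log2 difference of 0.5 or more was reached by 2 of the 39, Slc43a2 and Slc7a8, and the other 37 lay between -0.32 and 0.38. The 19 genes below the level filter, with mean levels of 4.00 to 5.25, differed by -0.14 to 0.05 in a fit with no filter, where their smallest adjusted p was 0.528 (limma).

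**Figure D1:**
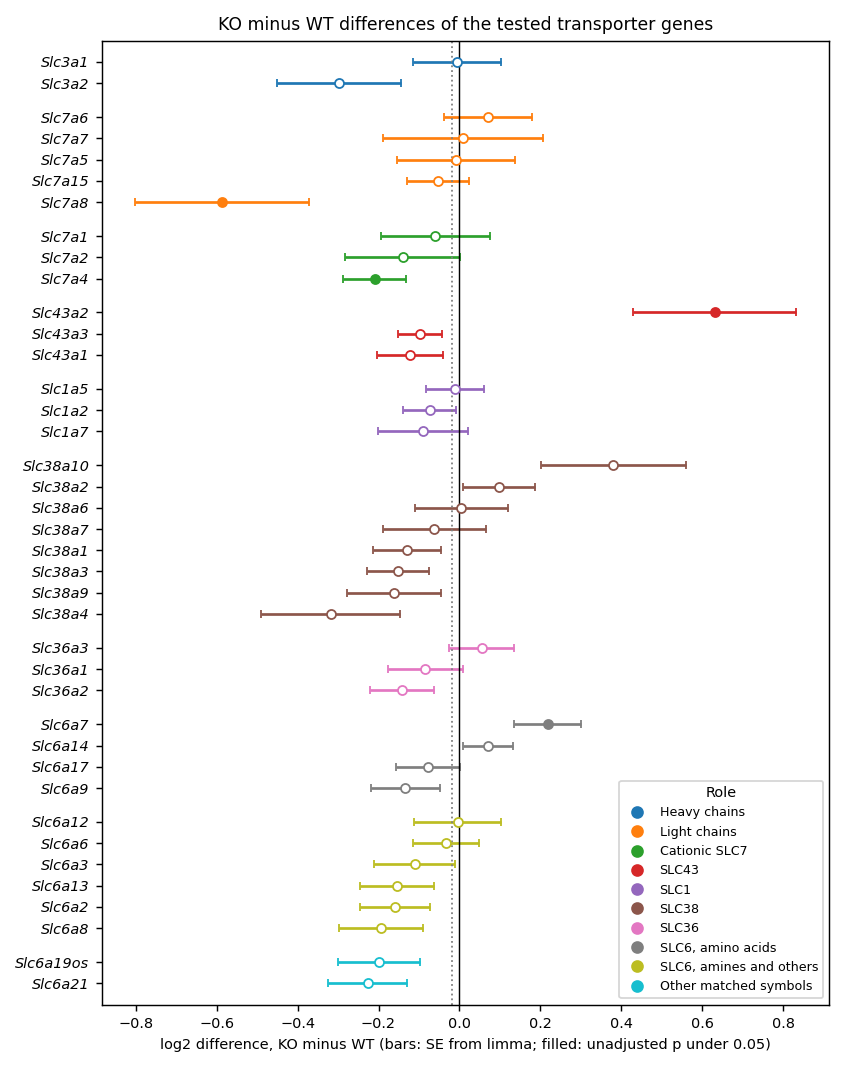
Log2 difference (KO minus WT) of the 39 tested transporter genes, grouped and coloured by role, with the SE from limma as bars. Filled points mark the 4 genes at an unadjusted p under 0.05, the dotted line is the median of all genes tested (-0.02), and 30 of the 39 points lie left of 0.

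Mex3a itself was the check of the genotype labels. It stood at 6.18, 6.29 and 6.07 in KO arrays against 7.41, 7.38, 7.50 and 7.01 in WT arrays, without overlap, a 2.19-fold lower level in KO (log2 difference -1.13, SE 0.13; limma, adjusted p = 0.142). Epcam, the sorted epithelial marker, was between 11.88 and 11.99 in KO arrays and between 11.87 and 11.99 in WT arrays. The cells were measured in bulk, so fewer cells of a type and less RNA per cell cannot be told apart in any value below.

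Among heavy chains, Slc3a2, also called CD98, pairs with most light chains and had a lower mean in KO. Its log2 level was 9.82, 9.51 and 9.20 in KO arrays against 10.08, 9.61, 9.77 and 9.90 in WT arrays. KO replicates 2 and 3 lay below all WT arrays, while KO replicate 1 lay inside the WT range. The difference was -0.30 (SE 0.15; limma, adjusted p = 0.476), a 1.23-fold lower level. Within scan batch 1 it was -0.02 and within scan batch 2 -0.48. Slc3a1, the heavy chain of the cystine carrier of kidney and small intestine, had a mean of 7.83 ± 0.15 in KO arrays (SD, n = 3) and of 7.89 ± 0.26 in WT arrays (SD, n = 4), a difference of -0.01 (SE 0.11) whose sign turned in 7 of 20 alternatives.

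Of the 10 light chains measured, 5 were tested, 3 with a negative difference, and the median difference was -0.01. Slc7a8, an exchanger of neutral amino acids that pairs with Slc3a2, stood furthest from 0 on the lower side of all transporter genes tested. It read 5.91, 5.39 and 5.07 in KO arrays against 6.28, 5.72, 5.95 and 6.35 in WT arrays, which is 5.46 ± 0.43 in KO (SD, n = 3) and 6.07 ± 0.30 in WT (SD, n = 4). KO replicates 2 and 3 were the lowest of the 7 arrays and KO replicate 1 lay within the WT range. The mean of Slc7a8 over all arrays, 5.81, was near the filter of 5.28, and KO replicate 3 lay below 5.28. With the lowest 50% of genes left out Slc7a8 was not tested. The level was 1.5-fold lower in KO (log2 difference -0.59, SE 0.22, unadjusted p = 0.0265; limma, adjusted p = 0.414), and the exact permutation p over the 35 splits of the arrays was 0.114. Within scan batch 1 the difference was -0.08 and within scan batch 2 it was -0.92. Since KO replicate 1 is the sole KO array of scan batch 1, leaving it out gives -0.92 too.

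The other light chains did not share that difference. Slc7a5, the main importer of large neutral amino acids in growing cells, had a difference of -0.01 (SE 0.15), with 8.05, 8.09 and 8.09 in KO arrays inside the WT values of 8.34, 7.94, 8.29 and 7.81. Slc7a6, which exchanges cationic for neutral amino acids, differed by 0.07 (SE 0.11), and Slc7a15 by -0.05 (SE 0.08). Slc7a9, Slc7a10, Slc7a11, Slc7a12 and Slc7a13 lay below the level filter.

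All 3 tested members of the cationic group had negative differences, with a median of -0.14. Slc7a4, grouped here by sequence with the cationic carriers, had the smallest p of them. It read 7.51, 7.93 and 7.98 in KO arrays against 7.65, 7.71, 8.17 and 8.21 in WT arrays. Both genotypes were higher in scan batch 2, and within each batch every KO array lay below both WT arrays, by 0.17 on average in batch 1 and by 0.24 in batch 2. With scan batch in the fit the difference was -0.21 (SE 0.08, unadjusted p = 0.0289; limma, adjusted p = 0.414), while with no term for scan batch it was -0.13. The exact permutation p of Slc7a4 was 0.571, or 0.333 with scan batch kept. Both rest on the difference of means with no term for scan batch, which the higher levels of batch 2 shift upwards. Of the 18 splits that keep scan batch, the observed one gave the lowest difference, so 0.333 does not reflect the order within batches. The second probe set of Slc7a4 differed by -0.18 (SE 0.15). On it KO replicate 1, at 6.90, lay below all other arrays. KO replicates 2 and 3, at 7.51 and 7.43, lay between the WT arrays of scan batch 2, at 7.53 and 7.25. Slc7a2, an arginine carrier, differed by -0.14 (SE 0.14) with WT replicate 1 above all others at 7.79, and by -0.032 without that array. Slc7a1, the general arginine and lysine carrier, differed by -0.06 (SE 0.13). Slc7a1 had 9.35, 9.34 and 9.36 in KO arrays, and WT arrays lay on both sides of them, from 9.15 to 9.73.

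The facilitative SLC43 carriers held the most positive difference of all transporter genes tested. Slc43a2 lets branched-chain amino acids and phenylalanine pass along their gradient. Its log2 level was 9.16, 9.56 and 9.76 in KO arrays against 8.57, 9.20, 9.03 and 8.56 in WT arrays. KO replicates 2 and 3 were above every WT array, and KO replicate 1 lay just under WT replicate 2. KO arrays averaged 9.50 ± 0.31 (SD, n = 3) and WT arrays 8.84 ± 0.32 (SD, n = 4), a 1.55-fold higher level (log2 difference 0.63, SE 0.20, unadjusted p = 0.0142; limma, adjusted p = 0.409). The exact permutation p was 0.0857. The difference was positive in both batches, 0.27 in batch 1 and 0.87 in batch 2, and in all 20 alternatives. Several of these alternatives change only the variance estimate or the genes tested, and so could not move the difference. Without 1 array the difference ranged from 0.46 without WT replicate 4 to 0.87 without KO replicate 1.

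The second probe set of Slc43a2 above the filter gave a smaller difference of the same sign. It read 9.14, 9.38 and 9.35 in KO arrays against 8.93, 9.07, 9.24 and 8.71 in WT arrays, a log2 difference of 0.29 (SE 0.13). Averaging all 3 probe sets gave 0.32. The remaining, dim probe set differed by 0.03 (SE 0.12).

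Marker levels and an RNA quality measure are given beside Slc43a2, and 0 markers in these lists passed the test (limma). All 5 tested goblet cell markers had positive differences, with a median of 0.53 and 1 of them at an unadjusted p under 0.05, and their mean log2 level was 9.36, 10.01 and 10.17 in KO arrays against 8.64, 9.79, 9.56 and 9.20 in WT arrays. Of 7 goblet cell genes measured, Clca1 and Zg16 lay below the filter, and Clca1 went the other way (-0.61). Of 7 tested colonocyte markers 5 were positive and 2, Aqp8 and Ceacam20, negative, with a median of 0.22 and 1 at an unadjusted p under 0.05. The leukocyte markers had a median of -0.04 over 7 tested genes, with 1 higher at that level, and their defining gene Ptprc lay below the filter. Of 5 tested endothelial markers 3 were negative and 2 positive, with 1 lower at that level, Cdh5 (-0.41, SE 0.09). Over all genes 7.14% were higher and 4.26% lower at that level. Gapdh control probe sets at the 3' end minus those at the 5' end, a measure of RNA quality on the log2 scale, gave -0.154, -0.213 and -0.239 in KO arrays against -0.131, -0.209, -0.121 and -0.121 in WT arrays. The same measure from actin overlapped between the genotypes in scan batch 2. There it was -0.515 and -0.446 in KO arrays and -0.497 and -0.448 in WT arrays. No fit used actin as a covariate. With the Gapdh measure as a further covariate, the difference of Slc43a2 was 0.29 (limma, adjusted p = 0.704 for Slc43a2). That of Slc7a8 was -0.18 (limma, adjusted p = 0.797) and that of Slc3a2 was -0.02 (limma, adjusted p = 0.975). In scan batch 2 the Gapdh measure was lower in both KO arrays than in both WT arrays. Its part in these differences therefore cannot be told apart from that of genotype there. The part of goblet cell content in these differences was not tested.

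Slc43a1, the closest relative of Slc43a2, differed in the other direction, by -0.12 (SE 0.08), at 5.61, 5.50 and 5.54 in KO arrays against 5.79, 5.50, 5.68 and 5.72 in WT arrays. Slc43a3, a purine base carrier and not an amino acid carrier, was lower in every KO array. It read 5.71, 5.77 and 5.74 in KO arrays against 5.84, 5.81, 5.85 and 5.83 in WT arrays, a difference of only -0.10 (SE 0.05; limma, adjusted p = 0.503). Its exact permutation p of 0.0286 is the smallest that 35 splits can give, and with scan batch kept the exact p was 0.0556.

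For 4 of the 39 genes the KO values lay wholly to one side of the WT values. Slc6a7 alone was higher in KO (2.68% of all genes were), and Slc43a3, Slc6a9 and Slc6a19os were lower (3.23% of all genes). Of these, Slc6a7, Slc43a3 and Slc6a19os were dim and were not tested when the lowest 50% of genes were left out. With fewer arrays non-overlap is easier for any gene: the count was 13 without KO replicate 1 (19.2% of all genes then) and 8 without WT replicate 2 (17.4%), 6 without KO replicate 2 (11.2%) or without WT replicate 4 (8.33%), 5 without WT replicate 1 (11.6%), and 4 without KO replicate 3 (10.4%) or WT replicate 3 (7.46%). The counts at an unadjusted p under 0.05 moved too. They were 3 higher and 5 lower without KO replicate 1 (13.4% and 6.25% of all genes), 1 and 1 without KO replicate 2 (3.49% and 2.25%), and 0 and 0 without KO replicate 3 (3.37% and 2.20%). They were 2 and 3 without WT replicate 1 (5.86% and 3.87%), 3 and 6 without WT replicate 2 (11.1% and 7.63%), 1 and 3 without WT replicate 3 (3.82% and 2.14%), and 0 and 1 without WT replicate 4 (4.15% and 4.74%).

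**Figure D2:**
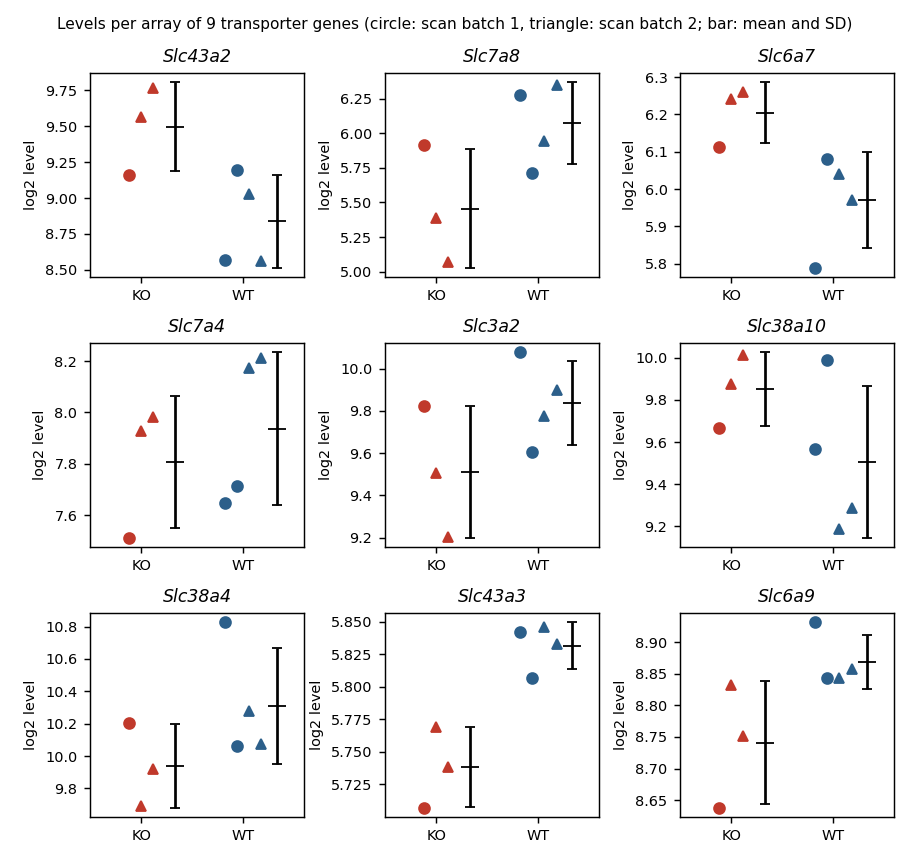
Log2 level per array of 9 transporter genes, with KO left of WT, circles for scan batch 1 and triangles for scan batch 2, and a bar for the mean and SD of each genotype. Each panel has its own axis; Slc43a2 spans about 1 log2 unit, whereas Slc43a3, without overlap between genotypes, spans under 0.2.

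The SLC1 carriers were close to equal. Slc1a5, which imports glutamine, had 9.39, 9.39 and 9.41 in KO arrays against 9.39, 9.47, 9.39 and 9.39 in WT arrays, a difference of -0.01 (SE 0.07). Slc1a2, a glutamate carrier best known from astrocytes, differed by -0.07 (SE 0.07), and Slc1a7, a glutamate carrier of the retina, by -0.09 (SE 0.11). Slc1a1, Slc1a3 and Slc1a6 lay below the filter.

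Of 9 SLC38 genes measured 8 were tested, 5 with a negative difference, and the median was -0.10. Slc38a4, a carrier of neutral amino acids, read 10.20, 9.69 and 9.92 in KO arrays against 10.83, 10.06, 10.28 and 10.07 in WT arrays. KO replicates 2 and 3 lay below every WT array, and WT replicate 1 stood above the other arrays. The difference was -0.32 (SE 0.17; limma, adjusted p = 0.494), -0.24 within scan batch 1 and -0.37 within scan batch 2. It was -0.20 without WT replicate 1 and -0.11 with the Gapdh covariate. On its second probe set, the one of larger variance, the difference was -0.07.

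Slc38a1 and Slc38a2 supply glutamine and other small neutral amino acids, and Slc38a2 is a known target of Atf4. Slc38a1 differed by -0.13 (SE 0.08), at 10.55, 10.54 and 10.41 in KO arrays against 10.67, 10.51, 10.78 and 10.55 in WT arrays. Slc38a2 differed by 0.10 (SE 0.09), at 10.19, 10.19 and 10.28 in KO arrays against 10.19, 10.24, 9.92 and 10.19 in WT arrays. Slc38a3, which also moves glutamine, differed by -0.15 (SE 0.08), and the lysosomal sensor Slc38a9 by -0.16 (SE 0.12).

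For Slc38a10, a little-studied member, the probe sets contradicted one another. The one used here read 9.67, 9.87 and 10.01 in KO arrays against 9.56, 9.99, 9.19 and 9.29 in WT arrays, a difference of 0.38 (SE 0.18; limma, adjusted p = 0.459), with -0.11 within scan batch 1 and 0.71 within scan batch 2. Of its 8 probe sets 5 had a positive and 3 a negative difference. The second in level read 8.88, 9.12 and 8.99 in KO arrays against 9.26, 9.13, 9.38 and 9.14 in WT arrays, every KO array below every WT array, with a difference of -0.25 (SE 0.09). The third also did not overlap, with a difference of -0.24 (SE 0.08). The mean of all 8 differed by -0.00246, so no direction can be given for this gene.

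Opposite signs between probe sets were common. Of 16 transporter genes with several probe sets above the level filter, 6 had both signs: Slc38a1, Slc38a2, Slc38a9, Slc38a10, Slc6a8 and Slc7a1. For Slc38a2 the probe set used gave 0.10 and the next 0.30 (SE 0.07, adjusted p = 0.483 in the limma fit over all probe sets, the smallest of the 102), with 9.33, 9.16 and 9.05 in KO arrays against 8.96, 9.05, 8.81 and 8.83 in WT arrays. For Slc7a1 the probe set used gave -0.06 and the other 2 gave 0.20 (SE 0.11) and 0.12 (SE 0.09). For Slc38a1 the 2 probe sets gave -0.13 and 0.13 (SE 0.06).

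**Figure D3:**
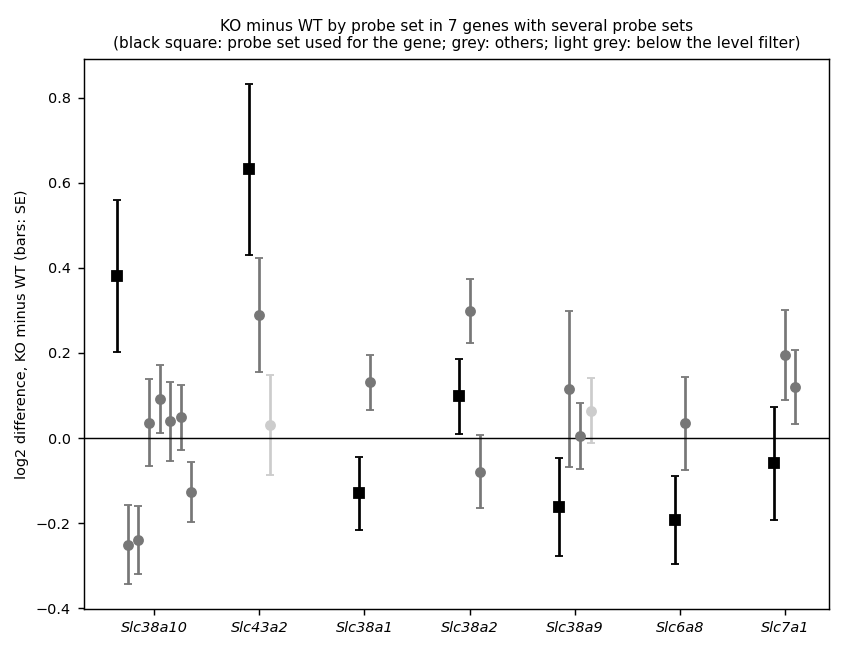
Log2 difference (KO minus WT) of each probe set of 7 transporter genes, with the SE from limma over all probe sets as bars; within a gene, probe sets run from the highest mean level on the left to the lowest. Black squares are the probe sets used for the gene, and Slc38a10 spans -0.25 to 0.38 over 8 probe sets.

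The proton-coupled SLC36 carriers gave small values of both signs. Slc36a2 differed by -0.14 (SE 0.08), the lysosomal carrier Slc36a1 by -0.08 (SE 0.09) and Slc36a3 by 0.06 (SE 0.08).

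Among the SLC6 amino acid carriers 4 of 10 were tested. Slc6a7, a proline carrier best known from neurons, read 6.11, 6.24 and 6.26 in KO arrays against 5.79, 6.08, 6.04 and 5.97 in WT arrays. Every KO array was above every WT array, with KO replicate 1 and WT replicate 2 separated by under 0.1. The difference was 0.22 (SE 0.08, unadjusted p = 0.0294; limma, adjusted p = 0.414), 0.18 in batch 1 and 0.25 in batch 2, and the exact permutation p was 0.0571, or 0.111 with scan batch kept. Slc6a9, a glycine carrier, was lower in every KO array, at 8.64, 8.83 and 8.75 in KO arrays against 8.93, 8.84, 8.84 and 8.86 in WT arrays. KO replicate 2 and WT replicates 2 and 3 nearly touched. Its difference was -0.13 (SE 0.09; limma, adjusted p = 0.551), and -0.058 without KO replicate 1. The exact permutation p was 0.0286, and 0.0556 with scan batch kept. Slc6a14, a colonic carrier of neutral and cationic amino acids, differed by 0.07 (SE 0.06), and Slc6a17, a vesicular carrier of neurons, by -0.08 (SE 0.08). Slc6a19, the main neutral amino acid carrier of the small intestinal brush border, lay below the filter, with a mean of 4.36 over all arrays, as did Slc6a5, Slc6a15, Slc6a18, Slc6a20a and Slc6a20b.

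All 6 tested SLC6 carriers of amines, GABA, osmolytes and creatine had negative differences, with a median of -0.13, and 0 of them at an unadjusted p under 0.05. Slc6a8, the creatine carrier, read 9.83, 10.43 and 10.25 in KO arrays against 10.29, 10.18, 10.50 and 10.27 in WT arrays. KO replicate 1 stood apart below all others, and the difference of -0.19 (SE 0.10; limma, adjusted p = 0.494) was -0.05 without it. Slc6a13, a GABA carrier, differed by -0.15 (SE 0.09), at 7.33, 7.18 and 7.29 in KO arrays against 7.50, 7.35, 7.53 and 7.33 in WT arrays. Slc6a2, the noradrenaline carrier, differed by -0.16 (SE 0.09), and the taurine carrier Slc6a6 by -0.03 (SE 0.08). The other probe sets of Slc6a6 gave -0.13 (SE 0.13), -0.25 (SE 0.09) and -0.22 (SE 0.11), and the mean of all its probe sets gave -0.16. The serotonin carrier Slc6a4 lay below the filter, at 4.83, 4.86 and 4.91 in KO arrays against 4.91, 4.69, 5.01 and 4.94 in WT arrays. The matched symbols outside these groups were Slc6a21, with a difference of -0.23 (SE 0.10), Slc6a19os, with -0.20 (SE 0.10), and Slc36a1os, which was below the filter. Slc6a19os did not overlap, at 5.57, 5.53 and 5.59 in KO arrays against 5.63, 5.63, 5.66 and 6.05 in WT arrays, and its difference was -0.08 without WT replicate 4.

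The batches differed in how far KO and WT stood apart. Of the 39 genes 22 had the same sign in both, 20 negative and 2 positive (Slc43a2 and Slc6a7), and 17 had opposite signs. Differences ran from -0.41 to 0.27 within scan batch 1, whose KO arm is 1 array, and from -0.92 to 0.87 within scan batch 2. The median was -0.04 in scan batch 1 and -0.09 in scan batch 2. KO replicate 1 also had the highest 3' minus 5' difference of actin, -0.301 against -0.515 and -0.446 in the other KO arrays and -0.497 to -0.429 in WT arrays.

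**Figure D4:**
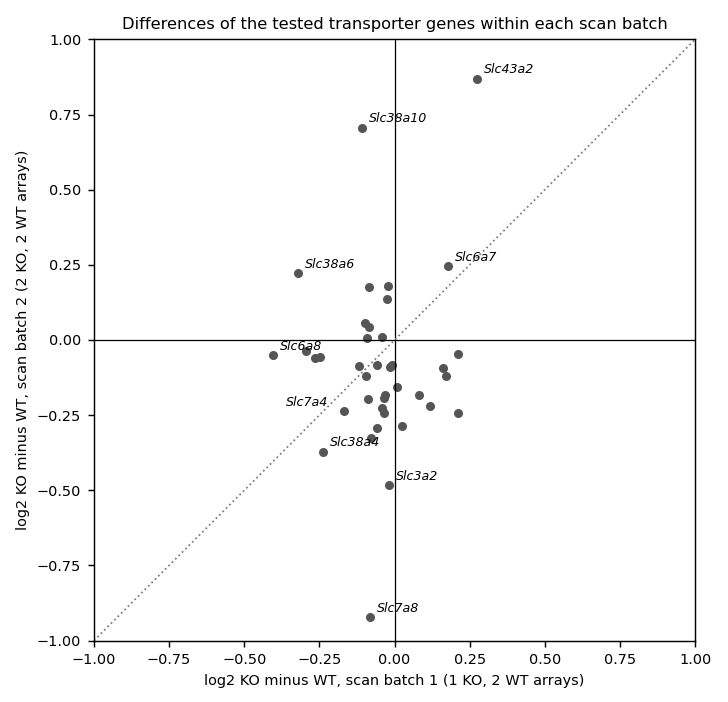
Log2 difference (KO minus WT) of each of the 39 tested transporter genes within scan batch 1 (horizontal) and scan batch 2 (vertical), with equal values on the dotted line. Slc7a8, Slc38a10 and Slc3a2 lie near 0 in batch 1 (-0.08, -0.11 and -0.02) and far from it in batch 2 (-0.92, 0.71 and -0.48).

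Among transporter genes, calls were made only when a weight was fitted to each array. With weights, 3 of the 39 transporter genes passed an adjusted p of 0.05, against 10.6% of all genes tested. They were Slc43a2 (log2 difference 0.66; limma, adjusted p = 0.0331), Slc38a10 on its brightest probe set (0.62, 0.0292) and Slc7a8 (-0.68, 0.0348). KO replicate 1 then counted least, with a weight of 0.298, and KO replicate 2 most, with 3.04.

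Of the genes listed as acting with the transporters 0 passed the test (limma, adjusted p over all genes). Their counts at an unadjusted p under 0.05 are to be read against 7.14% higher and 4.26% lower over all genes, and their negative differences against 56.1%. Among other amino acid, peptide and amine carriers, 7 of 17 tested differences were negative and the median was 0.02. In that list the peptide carrier Slc15a2 read 7.90, 8.31 and 8.26 in KO arrays against 5.79, 5.59, 5.64 and 7.85 in WT arrays (difference 1.81, SE 0.45; limma, adjusted p = 0.388), and the monoamine carrier Slc29a4 differed by -0.25 (SE 0.14). WT replicate 4 stood with the KO arrays for Slc15a2, and without it the difference was 2.43 (limma, adjusted p = 0.00978). Leaving out the WT array nearest the KO arrays widens the difference by construction, so this p is no separate support. Averaged over all probe sets of Slc15a2, with every array kept, the difference was 0.61.

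Of the Atf4 amino acid response 22 genes were tested, 14 with a negative difference, 0 higher and 2 lower at an unadjusted p under 0.05, and the median was -0.10. The 2 were Phgdh, the first enzyme of serine synthesis, with -0.28 (SE 0.09), and the stress factor Atf3, with -0.54 (SE 0.18). Phgdh read 8.41, 8.54 and 8.64 in KO arrays against 8.73, 8.68, 8.97 and 8.75 in WT arrays, without overlap. Of 17 cytosolic aminoacyl-tRNA synthetases, the enzymes that load amino acids onto tRNA, 12 were negative, 0 higher and 3 lower at that level, with a median of -0.10. Sars, the seryl enzyme, read 11.27, 11.23 and 11.22 in KO arrays against 11.48, 11.38, 11.41 and 11.35 in WT arrays (difference -0.15, SE 0.05, limma, adjusted p = 0.406). Farsb, a subunit of the phenylalanyl enzyme, differed by -0.16 (SE 0.06). Averaged over all their probe sets Sars differed by -0.12 and Farsb by -0.02.

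Of 13 enzymes of glutamine, glutamate and branched-chain metabolism 9 were negative, 0 higher and 3 lower, with a median of -0.09. Gpt2 and Gpt, the mitochondrial and cytosolic alanine transaminases, were lower in every KO array on the probe sets used. Gpt2 read 9.08, 9.01 and 9.12 in KO arrays against 9.51, 9.18, 9.66 and 9.38 in WT arrays (difference -0.38, SE 0.12, limma, adjusted p = 0.407). Averaged over all its probe sets Gpt2 differed by -0.16. Gpt read 7.81, 7.79 and 7.74 in KO arrays against 8.00, 8.02, 8.01 and 8.08 in WT arrays (difference -0.25, SE 0.08; limma, adjusted p = 0.409). The third was Bcat2, a branched-chain transaminase, with -0.23 (SE 0.09), chosen after its values were seen.

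Of 9 polyamine and arginine genes 6 were negative, 0 higher and 3 lower, with a median of -0.10. The spermidine synthase Srm differed by -0.33 (SE 0.11) and the arginase Arg1 by -0.31 (SE 0.08), with Arg1 near the level filter at 5.27, 5.41 and 5.45 in KO arrays against 5.48, 5.48, 5.95 and 5.66 in WT arrays. Of 25 genes of amino acid sensing by mTORC1 14 were negative, 3 higher and 4 lower, with a median of -0.05. The arginine sensor family member Castor2 differed by -0.33 (SE 0.11) and Fnip2, a partner of folliculin, by 0.24 (SE 0.08). Averaged over all its probe sets Castor2 differed by -0.16. Of 14 cysteine and glutathione genes 9 were negative, 0 lay at an unadjusted p under 0.05, and the median was -0.03. In that list Hmox1, which degrades haem, differed by -0.21 (SE 0.12) and Chac1, which degrades glutathione, by -0.26 (SE 0.17), or by -0.052 without KO replicate 1.

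**Figure D5:**
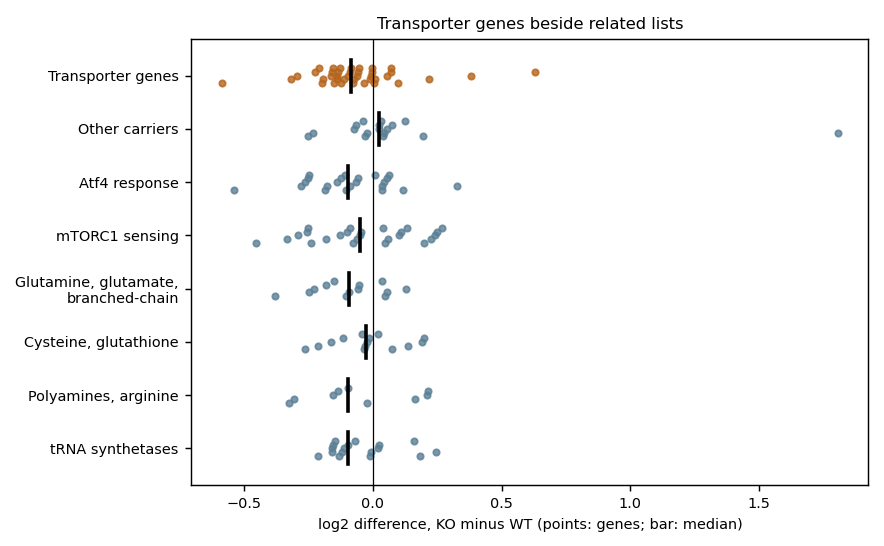
Log2 difference (KO minus WT) of each tested transporter gene (top row) and of the tested genes of 7 related lists, with a bar at each median. Medians run from -0.10 to 0.02, and the single point at 1.81 is Slc15a2.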

How the data were processed

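Expression was measured on 7 Affymetrix arrays, 3 KO and 4 WT. The authors deposited log2 expression values, 1 per probe set and array, from RMA according to the notes on processing by the submitters. Its version is not known here. Array medians ran from 5.96 to 6.00. Exact ties between arrays occurred in 38 of the 102 transporter probe sets, so some spreads look small. The number of arrays limits the precision.

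Symbols come from the platform annotation, checked through RefSeq gene numbers (28689 of 28898 matched, 0 differed). Each gene was represented by its probe set of highest mean, and the lowest 25% of genes were left out. The genotypes were compared by limma 3.58.1 under R 4.3.3, using lmFit, scan batch as covariate and trended eBayes, two-sided, with Benjamini-Hochberg adjustment over 12823 genes. Differences printed come from this fit, means and SDs from the values. The fit left 4 residual degrees of freedom. Single values were also compared by a two-sided exact permutation over 35 splits, whose smallest p is 0.0286. Keeping scan batch leaves 18 and 0.0556. In both, the statistic was the difference of means with no term for scan batch. The fit was tested on simulated data.

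The members and gene lists were chosen with earlier results of these data known. Genes named are Mex3a, the heavy chains, the 10 transporter genes of highest mean, the 3 of smallest p per role, those whose genotypes do not overlap or whose probe sets disagree in sign, and the 2 of smallest p in each of 7 related lists. Slc7a5, Slc7a7, Slc7a11, Slc6a4, Slc6a17, Slc6a19, Bcat2, marker genes and genes listed as below the filter fall outside this rule and were picked with their values in view. Promoter sequence is from RefSeq (GRCm38.p6). A probe set's brightness does not rank transcripts between genes.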

Additional observations from a re-analysis of the deposited data

Results flagged for a closer look

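In 6 of 47 named genes 1 WT array stood apart from the other 3 by Dixon's criterion for 4 arrays, which chance meets in about 1 of 20 groups. That rate does not hold where arrays share a value, as WT arrays did for Slc38a2, Slc1a5, Slc6a9 and Slc6a19os. KO has 3 arrays and was not tested. WT replicate 3 stood low for Slc38a2, at 9.92, with the next array at 10.19. WT replicate 2 stood high for Slc1a5, at 9.47, where the other 3 arrays were all at 9.39. WT replicate 1 stood low for Slc1a7, at 5.29, with the next at 5.76, and high for Slc6a9, at 8.93, with the next at 8.86. WT replicate 4 stood high for Slc6a19os, at 6.05, with the next at 5.66, and high for the peptide carrier Slc15a2, at 7.85, with the next at 5.79.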

How the results depend on the processing

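No paired analysis was possible because the replicate numbers were given in accession order and the labels share none between genotypes. Over 20 alternatives, 921 values of the 47 named genes were recomputed: 869 kept their sign and side of the threshold, 14 passed it (12 with array weights, and Mex3a, adjusted p = 0.0455, and Slc15a2, 0.00978, without WT replicate 4), and 38 turned, in 16 genes. The cause of these turns was not tested. Settings that change only the variance estimate or the genes tested cannot turn a sign. Scan batch 2 alone gives the same differences as leaving out KO replicate 1. In the fit reported no named gene lay near the threshold, so the 869 is a weak measure of stability. WT replicate 4 was the WT array nearest the KO arrays for Mex3a and Slc15a2, so leaving it out widens both differences. With array weights 3 transporter genes were called, against 0 in the fit reported and 0 in the other alternatives.

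The counts higher and lower at an unadjusted p under 0.05 were 2 and 2. With no term for scan batch they became 2 and 1 (4.09% and 3.09% of all genes). They were 4 and 8 in scan batch 2 alone (15.3% and 9.05%), and 4 and 10 with array weights (17.3% and 14.4%). With the lowest 50% left out they were 1 and 1 (8.66% and 4.27%), and with the Gapdh covariate 0 and 1 (3.95% and 3.91%). Over the 102 probe sets they were 2 and 5, and the share over all probe sets was not computed. With 1 array left out they were 0 to 3 and 0 to 6. The median difference (-0.08) was -0.041 in scan batch 1 (-0.020 over all genes) and -0.127 with array weights (-0.021). With no level filter it was -0.045 (-0.023) and with the Gapdh covariate -0.035 (-0.019). Over all probe sets it was -0.029, and with 1 array left out -0.094 to -0.079. The number without overlap (4) was 20 in scan batch 1 (58.8% of all genes) and 25 in scan batch 2 (57.2%), where fewer arrays are compared. It was 1 with the lowest 50% left out (6.56%) and 4 to 13 with 1 array left out. Over all probe sets it was 7, with no share computed.

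Signs turned as follows. In scan batch 1 alone the differences were -0.021 for Slc38a2, -0.108 for Slc38a10, -0.086 for Slc7a6, 0.0071 for Slc1a7, 0.118 for Slc36a1, -0.026 for Slc6a14 and 0.026 for Slc38a9. In scan batch 2 alone they were 0.056 for Slc3a1, 0.0093 for Slc1a5, 0.0054 for Slc6a6, -0.048 for Slc36a3 and 0.024 for Slc29a4. With array weights they were 0.121 for Slc3a1, 0.00277 for Slc1a5 and -0.035 for Slc36a3. With the mean of all probe sets they were 0.00054 for Slc38a1, -0.00246 for Slc38a10, 0.086 for Slc7a1 and 0.00560 for Slc38a9, and with each gene's most variable probe set 0.116 for Slc38a9 and 0.122 for Farsb. With the Gapdh covariate they were 0.015 for Slc3a1, 0.013 for Slc7a15, -0.018 for Slc7a6, 0.058 for Slc36a1, -0.00216 for Slc6a14 and 0.014 for Slc38a9. With 1 array left out, Slc3a1 ranged from -0.087 to 0.056, Slc1a5 from -0.021 to 0.0093, Slc7a1 from -0.197 to 0.092, Slc6a6 from -0.082 to 0.0054, Slc7a6 from -0.035 to 0.175, Slc36a3 from -0.048 to 0.105 and Slc29a4 from -0.328 to 0.024.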
